A study of Mus musculus with 4 samples.

Results

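Heat shock chaperones are proteins that bind other proteins while these fold, assemble or recover from damage. The 9 genes described here, of 32285 genes in the count tables, were taken by symbol: the HSP70 genes Hspa8, Hspa1a and Hspa1b, the HSP70 partners Dnajb1 and Hsph1, the HSP90 genes Hsp90ab1 and Hsp90aa1, and the mitochondrial chaperonin pair Hspd1 and Hspe1. They were given by name, with earlier results of these data known, and all 9 were present in each library. The samples were 4 CITE-seq libraries (RNA and antibody tags of single cells) of T cells sorted for surface CD3 from subcutaneous tumors of the 105K line, a Tsc2-deficient mouse kidney tumor line, grown in wild-type C57BL/6J mice. Tumor cells carried the control hairpin sh-NC (libraries 1 and 2, called control) or the hairpin sh-B7-H3 (1) against Cd276 (libraries 1 and 2, called knockdown), so all 4 libraries came from tumors without Tsc2 and the T cells themselves carried no hairpin. Per the study's methods the mice were males of 6 weeks at injection. Tumors of a group, 80 in number, were pooled before sorting. The labels describe duplicate lanes and the study's text differs on this, so the 2 libraries of a group were read as lanes of 1 pool and every p-value speaks of the spread between these lanes, not between mice. The sources name no batch, so handling that differed between the pools and the hairpin cannot be told apart.

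In resting cells the constitutive members, such as Hspa8 and Hsp90ab1, are made at a high level and serve everyday folding. The inducible members, Hspa1a and Hspa1b above all, are switched on when heat shock factor 1 is released by unfolded protein and binds repeats of the letters GAA, in alternating orientation, near the gene start. In T cells chaperone genes are known to respond to activation as well as to warming and to the handling of tissue. Per the study's methods the tumors were taken apart here with a protease in the cold, then mechanically, then with trypsin for 1 min at room temperature, and the cells were stained and sorted.

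T cells were placed in classes from their RNA. Cd8 cells held at least 3 UMIs (counted molecules) of Cd8a and Cd8b1 and none of Cd4 or Foxp3, Cd4 cells at least 1 Cd4 UMI without Foxp3, and Foxp3 cells at least 1 Foxp3 UMI, Foxp3 being the defining factor of regulatory T cells. Each class was split at 20 UMIs of Ccl5, a chemokine of effector T cells. The called cells numbered 7030 to 12112 per library with 79224898 to 132820909 RNA UMIs, and 2576 to 5482 cells per library passed the filters. Between any pair of libraries 17 to 35 cell barcodes were shared. Cd276, the gene the hairpin targets in the tumor cells, had 0 and 1 UMIs in the classed T cells of the control and 1 and 0 in those of the knockdown libraries, so these T cells hold no check of the knockdown. Cells per library numbered 399 to 1455 for Cd4 and 347 to 1938 for Cd8 under 20 Ccl5 UMIs, 127 to 502 and 365 to 870 at 20 or more, 165 to 310 for Foxp3 under 20 and 12 to 28 for Foxp3 at 20 or more. Of marker genes that the classes did not use, the CD3 and receptor chain genes stood at 4188 to 11232 CPM (UMIs per 1000000 RNA UMIs of a class in a library) in all 24 sums of class and library. By the rule itself, Cd8a and Cd8b1 lay at 1284 to 2689 in Cd8 and 12.5 to 81.0 in the other sums, and Foxp3 was 0 in Cd4 and Cd8 cells.

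The upstream sequence near the start of the inducible genes is shown because the letters of the heat shock element are the best known feature these genes have in common. RefSeq gives 9 promoters for 6 of the 9 members on GRCm38.p6, each from 250 bases before to 50 after a start. Hspa8, Hsp90aa1 and Hsp90ab1 had no entry. Hspa1a (chromosome 17, 34969190 to 34972156) and Hspa1b (34956436 to 34959238) are single-exon genes on the minus strand, 9951 bases apart, and their upstream 250 bases are 98.8% identical. Hspd1 (chromosome 1, 55077835 to 55088243, minus strand) and Hspe1 (55088132 to 55091307, plus strand) stand head to head and overlap by 112 bases, so their windows below are 1 stretch read from both strands. The RefSeq start of Hspe1 and 1 RefSeq start of Hspd1 lie to the right of it as printed. Hspd1 has another RefSeq start at 55088243, to the left as printed, and the distance below is not from that start. Capitals mark the units of the element.
Hspa1a, chr17:34972242-34972271, minus strand, 115 to 86 bases before the start: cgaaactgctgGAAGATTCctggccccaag
Hspa1b, chr17:34959324-34959353, minus strand, 115 to 86 bases before the start: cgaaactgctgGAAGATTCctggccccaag
Hspd1, chr1:55088053-55088082, minus strand, 150 to 121 bases before the start: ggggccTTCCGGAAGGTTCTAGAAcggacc
Hspe1, chr1:55088053-55088082, plus strand, 95 to 66 bases before the start: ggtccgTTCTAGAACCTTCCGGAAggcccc
The windows of Hspa1a and Hspa1b are the same letter for letter, and each holds 1 match of a pair of units. The shared window of Hspd1 and Hspe1 holds 2 overlapping matches of 3 units, 18 bases in all. This stretch also lies inside the annotated span of Hspd1 given above.

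The pair GAANNTTC, which reads the same on both strands, was present in 6 of the 9 member promoters and in 7.86% of all 32851 RefSeq promoters. The pair TTCNNGAA was present in 4 of 9 and in 8.52% of all. The longer GAANNTTCNNGAA or TTCNNGAANNTTC, which contain both pairs, were present in 4 of 9 and in 0.603% of all. These 4 were Hspe1, 1 of the 2 promoters of Hspd1 and both of Hsph1, where the match lies after the start. The 2 Hsph1 windows overlap and hold the same match, and the Hspd1 and Hspe1 matches are the 1 stretch shown above. The 6 promoters with GAANNTTC are these 4 and the nearly identical ones of Hspa1a and Hspa1b. The counts are thus of promoters and not of separate sites. Dnajb1 held none of them in either window. A match is a description of the letters only.

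Hspa1a and Hspa1b encode nearly the same protein. Of the 31-base words of their transcripts 63.8% and 67.5% are shared with the other gene, and in the last 500 bases, where this 3′ chemistry reads, 0 of 470 words are shared. Reads from there can be told apart, while reads further inside can be told apart only in part, and the counts stay uncertain to that extent. Hspa1a also overlaps the gene Gm20481 on the opposite strand, and Hspa8 (chromosome 9, 40800984 to 40810087) holds 3 small nucleolar RNA genes.

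Levels are given as CPM. These are levels per molecule counted, and since the 3′ chemistry counts 1 end of each transcript they need no length correction. Over the 24 sums Hsp90ab1, the constitutive cytosolic HSP90, had a median of 1421 and a range of 1003 to 1835. Hspa8, the constitutive cytosolic HSP70, had a median of 1293 and a range of 1030.0 to 1874. Hspe1, the lid of the mitochondrial folding chamber, followed at 406 (251 to 682) and Hsp90aa1, the inducible HSP90, at 354 (241 to 419). Hspd1, the chamber itself, stood at 128 (48.3 to 169). Dnajb1, which hands clients to HSP70, stood at 69.6 (8.76 to 87.9), and Hsph1, which exchanges nucleotide on HSP70, at 49.4 (26.3 to 81.4). The inducible Hspa1b (35.9, 5.40 to 138) and Hspa1a (22.3, 0 to 51.7) were lowest. The ranges of Hsp90ab1 and Hspa8 overlap, as do those of Hspe1 and Hsp90aa1 and those of the 5 lowest genes with their neighbors, while no range spans these 3 groups. Together the 9 genes made up 0.303 to 0.455% of the RNA UMIs of a class.

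**Figure D1:**
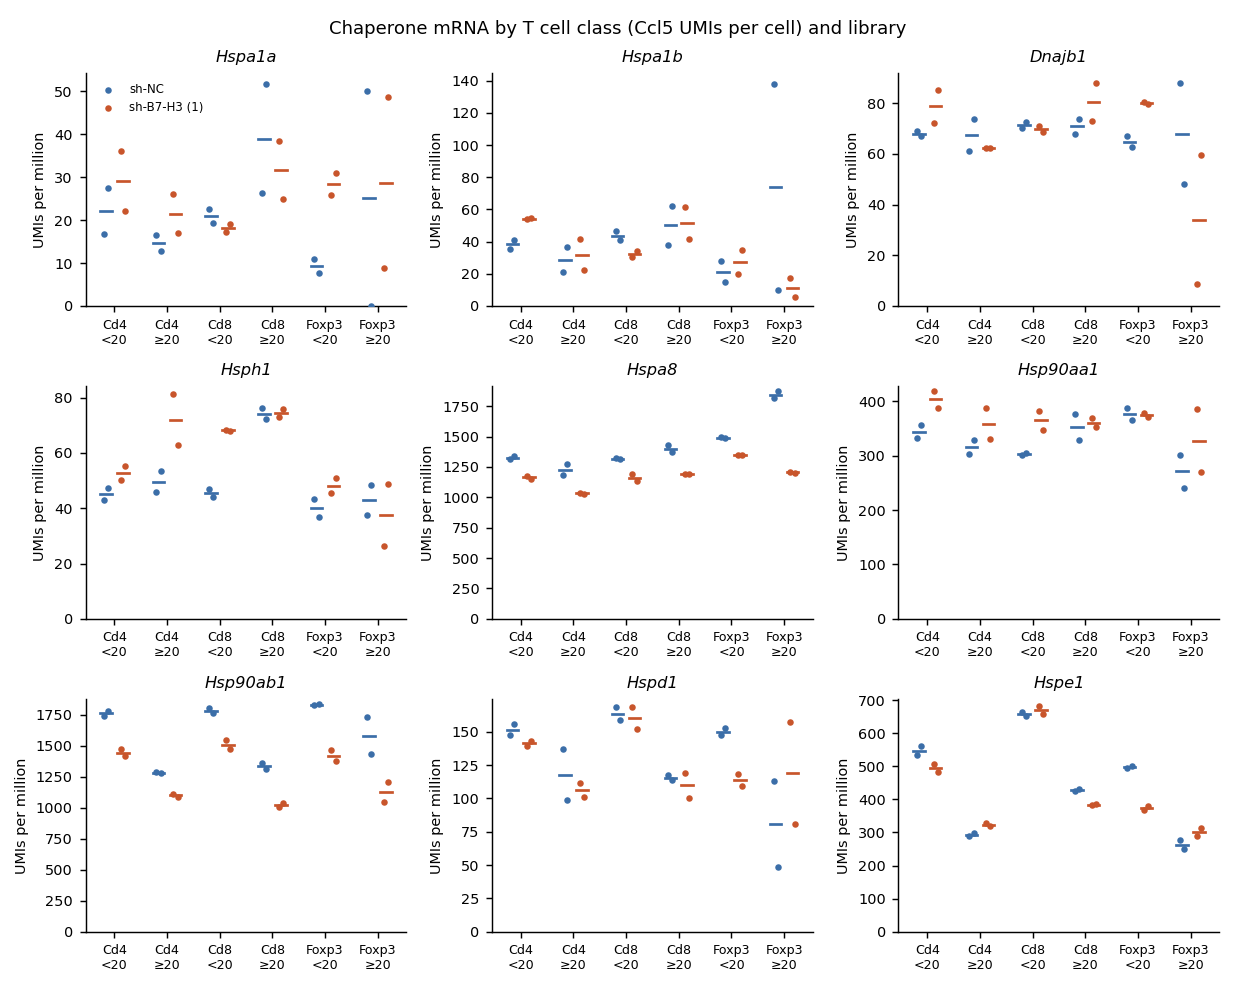
Level of each of the 9 chaperone genes (y axis, CPM) in 6 T cell classes (x axis, Cd4, Cd8 and Foxp3 cells with under or at least 20 Ccl5 UMIs). Blue points are the 2 control libraries, orange points the 2 knockdown libraries and lines their means. Hspa8 and Hsp90ab1 lie lower in both knockdown libraries in all 6 classes, while Hspa1a and Hspa1b scatter most in the Foxp3 cells with at least 20 Ccl5 UMIs, where a library holds 12 to 28 cells.

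The first question of the design is what differs in the T cells when the tumor carries the B7-H3 hairpin. The constitutive genes Hspa8 and Hsp90ab1 were lower in both knockdown libraries than in both control libraries in each of the 6 classes. In the same T cells Hsp90aa1 and Hsph1 lay the other way, higher without overlap in 3 and 4 classes. Counted over genes and classes, 14 of the members' 54 pairs were higher without overlap and 19 lower, against 18.9% and 33.8% of all pairs among genes of at least 20 CPM. A fall without overlap in every class, as in Hspa8 and Hsp90ab1, was found in 2.35% of these genes. The members' count of lower pairs is near the background, and that of higher pairs somewhat above it.

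Hsp90ab1 in Cd4 cells under 20 Ccl5 UMIs stood at 1736 and 1783 CPM in the control libraries, against 1469 and 1413 with the knockdown. Its levels in Cd8 cells under 20 were 1803 and 1761 against 1547 and 1469. In Cd8 cells at 20 or more it stood at 1356 and 1312 against 1003 and 1040.3, and in Foxp3 cells under 20 at 1827 and 1835 against 1462 and 1373. The 2 libraries of a group lay close together each time, and the groups were well apart. By edgeR's quasi-likelihood test on the summed counts, with p-values adjusted over all genes tested, Hsp90ab1 fell in these 4 classes. Its log2 fold changes were -0.26 (SE 0.04, adjusted p = 4.7e-06), -0.17 (SE 0.03, adjusted p = 0.0017), -0.34 (SE 0.04, adjusted p = 1.5e-13) and -0.38 (SE 0.06, adjusted p = 2.6e-04). The call in Cd8 cells under 20 was lost without control library 1, where the log2 fold change keeps its sign. In Cd4 cells at 20 or more the values were 1286 and 1281 against 1111 and 1088, with a log2 fold change of -0.15 that did not pass with TMM (adjusted p = 0.18) and one of -0.22 that passed with UMI totals (adjusted p = 0.0059). With each cell thinned to 1000 UMIs the calls in Cd8 cells at 20 or more (-0.18, adjusted p = 0.16) and Foxp3 cells under 20 (-0.24, adjusted p = 0.50) were lost.

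Hspa8 had 1316 and 1337 CPM in the control against 1179 and 1149 with the knockdown in Cd4 cells under 20 Ccl5 UMIs. In Cd8 cells under 20 the values were 1323 and 1315 against 1189 and 1136, and in Cd8 cells at 20 or more 1429 and 1371 against 1196 and 1189.6. Hspa8 fell in these 3 classes, by 0.16 (SE 0.04, adjusted p = 0.0033), 0.11 (SE 0.03, adjusted p = 0.034) and 0.19 (SE 0.04, adjusted p = 2.1e-04) on the log2 scale in edgeR's test. These changes are small and each call depended on single libraries: the first was lost without control library 1 or 2, the second without control library 1 or 2 or knockdown library 2, and the third without control library 1. The first was also lost with stricter lineage calls, and the second with the split at 10 Ccl5 UMIs and 1 fit of all sums. In Cd4 cells at 20 or more the levels were 1183 and 1271 against 1039 and 1030.0, with a log2 fold change of -0.17 that did not pass with TMM (adjusted p = 0.098) and one of -0.25 that passed with UMI totals (adjusted p = 0.0033). In Foxp3 cells under 20 the levels were 1493 and 1489 against 1345 and 1351, without overlap but short of the threshold (log2 fold change -0.16, adjusted p = 0.20).

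Hsp90aa1, the HSP90 gene that responds to heat, rose in 2 of the classes in which Hsp90ab1 fell. In Cd8 cells under 20 Ccl5 UMIs it stood at 302 and 305 CPM in the control libraries and at 383 and 348 in the knockdown libraries. The rise was 0.33 (SE 0.04, adjusted p = 2.8e-05) on the log2 scale in edgeR's test, and the call was kept without each library in turn. In Cd4 cells under 20 the levels were 333 and 356 against 419 and 388, a rise of 0.25 (SE 0.05, adjusted p = 6.3e-04) that was lost without control library 1 or knockdown library 1 and with stricter lineage calls. In the other classes tested Hsp90aa1 did not pass. Its levels there overlapped between the groups in Cd8 cells at 20 or more and in Foxp3 cells of both kinds.

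Hsph1, the nucleotide exchange partner of HSP70, had the widest difference in Cd8 cells under 20 Ccl5 UMIs, at 47.1 and 44.1 CPM with the control hairpin against 68.4 and 67.9 with the knockdown. It rose by 0.65 (SE 0.07, adjusted p = 3.4e-06) on the log2 scale in edgeR's test, and was called without each library in turn. In Cd4 cells at 20 or more it stood at 45.7 and 53.5 against 81.4 and 62.7, a rise of 0.59 (SE 0.17, adjusted p = 0.026) that was lost without control library 1 or knockdown library 1. It was also lost with UMI totals (adjusted p = 0.11), DESeq2, no upper gene limit, up to 10% mitochondrial UMIs and both other Ccl5 splits. In Cd8 cells at 20 or more the groups overlapped, at 76.3 and 72.1 against 72.9 and 75.9.

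Dnajb1, a J-domain partner that stirs HSP70 to act, passed in 1 class, Cd4 cells under 20 Ccl5 UMIs. Its levels there were 69.2 and 66.9 CPM against 72.4 and 85.1, a rise of 0.26 on the log2 scale (SE 0.08, edgeR adjusted p = 0.038). The call was lost without control library 1, control library 2 or knockdown library 2. It was also lost with UMI totals (adjusted p = 0.070), DESeq2, no expression filter, no doublet removal, stricter lineage calls, both other Ccl5 splits and 1 fit of all sums. Dnajb1 in Foxp3 cells under 20 lay at 67.1 and 62.6 against 80.4 and 79.8 and did not pass (adjusted p = 0.33).

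The inducible Hspa1b rose in Cd4 cells under 20 Ccl5 UMIs, from 35.4 and 41.1 CPM in the control libraries to 53.8 and 54.7 in the knockdown libraries. The log2 fold change was 0.54 (SE 0.10, edgeR adjusted p = 2.6e-04), and the call was kept without each library in turn. In Cd8 cells under 20 Hspa1b lay the other way, at 46.4 and 41.1 against 30.4 and 34.0, a fall of 0.36 (SE 0.10, adjusted p = 0.034) that was lost without any 1 of the 4 libraries and with the replicate number as a block. The call was also lost with DESeq2, the split at 10 Ccl5 UMIs and 1 fit of all sums. At full depth Hspa1b was detected in more of these cells with the knockdown, 10.3% against 13.6% (means of 2 libraries), without overlap. Hspa1b detection overlapped between the groups at 1000 and 2000 UMIs per cell. Its near twin Hspa1a showed no call in either class, with 16.7 and 27.5 against 36.0 and 22.1 in Cd4 cells and 22.5 and 19.4 against 17.2 and 19.2 in Cd8 cells.

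Hspa1a rose in Foxp3 cells under 20 Ccl5 UMIs, from 10.9 and 7.70 CPM to 25.8 and 31.03, a rise of 1.60 on the log2 scale (SE 0.30, edgeR adjusted p = 0.0011). Few molecules carry this value. The 4 libraries held 23, 15, 25 and 42 Hspa1a UMIs in 5, 6, 6 and 10 cells, and the highest single cell held 44 to 64.3% of them. The call was lost in DESeq2 and with either of the other Ccl5 splits. Hspa1b in the same cells overlapped between the groups, at 27.9 and 14.9 against 19.6 and 34.7.

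The mitochondrial pair fell in Foxp3 cells under 20 Ccl5 UMIs. Hspe1 stood at 495 and 500.3 CPM in the control libraries and at 368 and 381 in the knockdown libraries, a fall of 0.42 (SE 0.08, edgeR adjusted p = 0.0018) that was kept without each library in turn. Hspd1 stood at 147 and 153 against 119 and 109, a fall of 0.41 (SE 0.12, adjusted p = 0.040) that was lost without any 1 of the 4 libraries. The Hspd1 call was also lost with UMI totals (edgeR adjusted p = 0.052), DESeq2, no doublet removal, stricter lineage calls and the split at 10 Ccl5 UMIs. After thinning each cell to 1000 UMIs neither call was kept (Hspe1 -0.41, adjusted p = 0.35, and Hspd1 -0.30, adjusted p = 0.81). In Cd4 and Cd8 cells of either kind neither gene passed in the main fit with TMM. With UMI totals Hspe1 fell in Cd4 cells under 20 (-0.15, adjusted p = 0.014) and in Cd8 cells at 20 or more (-0.16, adjusted p = 0.015). Hspe1 there ran from 534 and 560.3 against 506 and 484 in Cd4 cells under 20 to 289 and 298 against 329.9 and 318 in Cd4 cells at 20 or more, without overlap and in opposite directions.

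**Figure D2:**
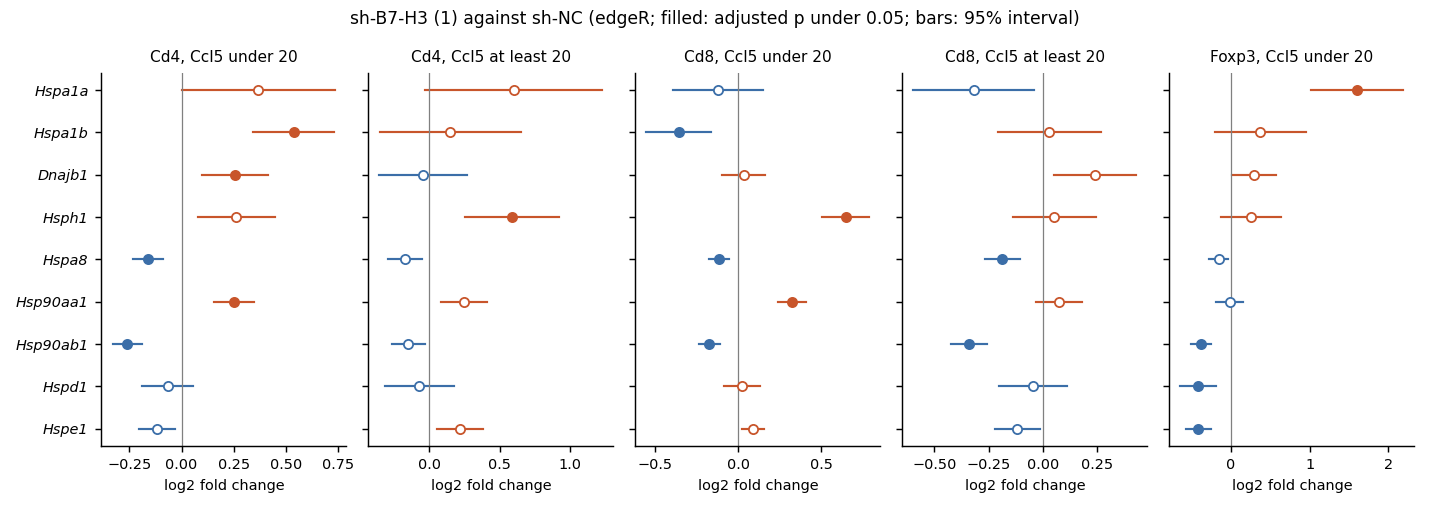
Log2 fold change of the knockdown against the control libraries (x axis) for each chaperone gene (y axis) in 5 T cell classes, from edgeR, with bars of 1.96 SE. The bars use the multiple of a normal distribution, so as 95% intervals they are approximate and narrower than the test would give. Filled points passed an adjusted p of 0.05, orange points are above 0 and blue points below. Hsp90ab1 is filled and below 0 in 4 of the 5 classes, and Hsph1 and Hsp90aa1 lie furthest above 0 in Cd8 cells with under 20 Ccl5 UMIs.

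Counted per class, 3 of the 9 members rose and 2 fell in Cd4 cells under 20 Ccl5 UMIs, where 5.34% of all genes tested rose and 3.93% fell. In Cd4 cells at 20 or more 1 rose and 0 fell, beside 2.11% and 2.47%. In Cd8 cells under 20 it was 2 up and 3 down, beside 3.51% and 2.91%, and in Cd8 cells at 20 or more 0 up and 2 down, beside 5.28% and 6.08%. The last count changed with the processing. It was 4 lower without doublet removal, with up to 10% mitochondrial UMIs and with the split at 10 Ccl5 UMIs, where Hspa1a (-0.57, -0.71 and -0.56) and Hspe1 (-0.17, -0.15 and -0.27) fell as well. With no upper gene limit it was 1 higher, Dnajb1 (0.33), and 5 lower, with Hspa1a (-0.38), Hspe1 (-0.25) and Hspd1 (-0.22) added, and after thinning 0. Without control library 1 Hspa1a (-0.70) was called too, and without knockdown library 1 Hspa1a (-0.62) and Dnajb1 (0.34). Without control library 2 Hspa1a changed sign to 0.27, without a call. In Foxp3 cells under 20 it was 1 up and 3 down, beside 1.92% and 1.99%. In Foxp3 cells at 20 or more only 5 members passed the filter on low counts, and 0 were called by edgeR or by DESeq2, beside 2.37% and 0.83% of all genes. There 1 of the 5 had an unadjusted p under 0.05 in edgeR, Hspa8 at 1819 and 1874 against 1208 and 1204 CPM (log2 fold change -0.45, adjusted p = 0.14), which passed with UMI totals (-0.64, adjusted p = 0.043), where the median of all genes tested lay at -0.16. In the other classes that median was -0.07 in Cd4 cells at 20 or more and Cd8 cells under 20, -0.05 in Cd8 cells at 20 or more, -0.02 in Cd4 cells under 20 and 0.01 in Foxp3 cells under 20. The median log2 fold change of the members ran from -0.05 to 0.25 over the 5 classes in which all 9 were tested, beside medians of all genes within 0.01 of 0. With 9 genes, a single call moves such a share by much. With each cell thinned to 1000 UMIs, which leaves fewer UMIs to test, the calls kept were Hsp90ab1 in Cd4 and Cd8 cells and Hsp90aa1 in Cd8 cells, all under 20 Ccl5 UMIs, and no other. Hspa1a in Foxp3 cells was then too low to be tested.

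Other measures moved with the knockdown in the same classes. Apart from the repeat without myeloid cells given here, their part in these results was not tested. In Cd4 cells under 20 Ccl5 UMIs the 8 myeloid markers summed to 31.6 to 88.4 CPM in the control against 267 to 442 with the knockdown, 8 of 8 higher without overlap, with Itgax at 0 in the control. The 5 effector markers summed to 68.2 to 85.1 against 717 to 744, and the 4 naive markers to 1092 to 1101 against 863 to 870.0. The myeloid sum in Cd8 cells under 20 was 14.9 to 44.0 against 67.0 to 210.2 (5 of 8 higher, none at 0 in all libraries), and in Foxp3 cells under 20 it was 75.4 to 668 against 187 to 404 (0 of 8 higher and 0 lower without overlap). At 20 or more it was 42.2 to 68.5 against 94.4 to 109 in Cd4 cells (2 of 8 higher and 1 lower) and 35.5 to 66.7 against 76.0 to 111 in Cd8 cells (4 of 8 higher and 1 lower). With cells of at least 3 myeloid UMIs left out, the calls were kept: 5 members in Cd4 and 5 in Cd8 cells under 20, 1 in Cd4 and 2 in Cd8 cells at 20 or more, and 4 in Foxp3 cells under 20. The myeloid sum left in these 5 classes was 9.72 to 24.6 CPM in the control against 35.4 to 65.3 with the knockdown, so the groups still stood apart in it. The median mitochondrial share of a cell was 3.48 to 3.51% in the control against 4.11 to 4.12% with the knockdown in Cd4 cells under 20, and 3.40 to 3.43% against 4.18 to 4.22% in Cd8 cells under 20. It was 2.11 to 2.15% against 2.71 to 2.74% in Cd8 cells at 20 or more, and 2.85 to 2.92% against 3.37 to 3.45% in Foxp3 cells under 20. Naive markers summed to 909 to 923 against 749.7 to 750.5 in Cd8 cells under 20, to 164 to 205 against 64.0 to 64.4 in Cd8 cells at 20 or more, and to 476 to 564 against 333 to 374 in Foxp3 cells under 20. Effector markers, Ccl5 among them, summed to 619 to 648 against 861 to 908, to 21782 to 22495 against 28145 to 28344, and to 509 to 682 against 1009.9 to 1042 in the same order. Of these 5 markers, 5, 3 and 3 were higher without overlap and 0, 2 and 0 lower in that order. In Cd4 cells at 20 or more the mitochondrial share was 2.17 to 2.18% against 2.91%, and the effector sum 32152 to 32834 against 23853 to 25690, lower with the knockdown. Gm42418, a gene that overlaps ribosomal RNA, stood at 4945 to 6481 CPM in the control against 25947 to 40065 with the knockdown over all 6 classes.

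The second question is how the chaperones differ between Ccl5-high and Ccl5-low cells of a lineage. Ccl5-high cells held less of the mitochondrial pair and of Hsp90ab1 in both lineages. In Cd4 cells Hspe1 stood at 484 to 560.3 CPM under 20 Ccl5 UMIs and at 289 to 329.9 at 20 or more, over the 4 libraries. In Cd8 cells it stood at 653 to 682 against 382 to 433. The classes did not overlap in either lineage. Hspd1 in Cd8 cells stood at 152 to 169 against 100.5 to 119, and Hsp90ab1 at 1469 to 1803 against 1003 to 1356. In edgeR's test with the library as a block, Hspe1 fell by 1.10 (SE 0.08, adjusted p = 3.2e-07) in Cd4 and by 1.07 (SE 0.05, adjusted p = 1.5e-09) in Cd8 cells on the log2 scale. Hsp90ab1 fell by 0.78 and 0.85 and Hspd1 by 0.75 and 0.89, all with adjusted p of 1.5e-05 or less. The same classes differed in other measures, whose part was not tested. The median mitochondrial share of a cell was 3.40 to 4.22% under 20 and 2.11 to 2.91% at 20 or more in the Cd4 and Cd8 cells. The median cell held 8567 to 9238 against 5763 to 6008 UMIs in Cd8 and 6812 to 8079.5 against 6545 to 6968 in Cd4 cells. Naive markers summed to 749.7 to 923 against 64.0 to 205 CPM in Cd8 and 863 to 1101 against 33.6 to 47.1 in Cd4 cells.

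The sizes of these differences depend on the scaling. TMM, the scaling used in the tests, sets the typical gene to no change. Scaled by UMI totals alone, the median of all genes tested was 0.35 higher on the log2 scale in Ccl5-high Cd4 cells, 0.36 higher in Ccl5-high Cd8 cells and 0.15 higher in Ccl5-high Foxp3 cells. Ribosomal protein genes took 43.9 to 49.6% of the UMIs of Ccl5-low Cd4 and Cd8 cells and 27.5 to 36.4% of those of Ccl5-high cells, and their part in the shift was not tested. With UMI totals Hspe1 was still lower by 0.75 in Cd4 and 0.71 in Cd8 cells, Hsp90ab1 by 0.42 and 0.49, and Hspd1 by 0.40 and 0.52, each called under both scalings. UMI totals called 1 member higher and 6 lower in Cd4 cells, beside 47.3% of all genes higher and 14.2% lower, and 3 higher and 3 lower in Cd8 cells, beside 54.6% and 13.2%.

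The HSP70 genes are given for each lineage apart, since the difference between lineages was not tested. In Cd4 cells Hspa1b stood at 35.4 to 54.7 CPM under 20 Ccl5 UMIs and at 21.1 to 41.5 at 20 or more. It fell by 1.04 (SE 0.16, edgeR adjusted p = 2.0e-04) with TMM and by 0.69 with UMI totals. Hspa1a fell by 0.82 and 0.48, and Hspa8 by 0.50 and 0.14, all called under both scalings. Few molecules carry the values of Hspa1a and Hspa1b. At 20 or more the 4 libraries held 14, 12, 66 and 59 Hspa1a UMIs in 2, 2, 12 and 16 cells. For Hspa1b they held 18, 34, 105 and 77 UMIs in 2, 7, 23 and 31 cells, and its levels overlapped between the classes. Hspa1a levels there, 12.8 to 26.1 CPM, overlapped those under 20, at 16.7 to 36.0 CPM. In Cd8 cells Hspa1a rose instead, by 0.45 (SE 0.17, adjusted p = 0.042) with TMM and 0.82 with UMI totals, from 17.2 to 22.5 to 24.9 to 51.7 CPM. That call was lost without control library 2 or knockdown library 1. It was also lost with DESeq2, no doublet removal, no upper gene limit and up to 10% mitochondrial UMIs. Hspa1b in Cd8 cells did not pass with TMM (0.02, adjusted p = 0.91) and lay at 0.39 with UMI totals (adjusted p = 0.033).

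For the partners and Hsp90aa1 the calls rested on the scaling. Dnajb1 fell by 0.56 in Cd4 and 0.26 in Cd8 cells with TMM, the latter call lost without control library 1, and lay at -0.20 and 0.11 with UMI totals, where neither passed. Hsp90aa1 fell by 0.50 and 0.26 with TMM and lay at -0.15 and 0.10 with UMI totals, again without a call. Hspa8 in Cd8 cells fell by 0.30 with TMM and lay at 0.06 with UMI totals. Hsph1 did not pass in either lineage with TMM (-0.04 and 0.05) and was higher by 0.31 and 0.42 with UMI totals (adjusted p = 0.031 and 0.0029).

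With TMM, 0 members were higher and 8 lower in Ccl5-high Cd4 cells, beside 26.1% of all genes higher and 26.2% lower. In Cd8 cells 1 was higher and 6 lower, beside 26.7% and 27.5%. In Foxp3 cells 0 were higher and 1 was lower, beside 1.28% and 1.77%. That gene was Hspe1, at 368 to 500.3 CPM under 20 Ccl5 UMIs and 251 to 313 at 20 or more, a fall of 0.72 (SE 0.18, edgeR adjusted p = 0.028) that was lost with UMI totals and without control library 1 or 2. The median log2 fold change of the members was -0.75 in Cd4 and -0.26 in Cd8 cells, beside medians of all genes within 0.01 of 0.

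**Figure D3:**
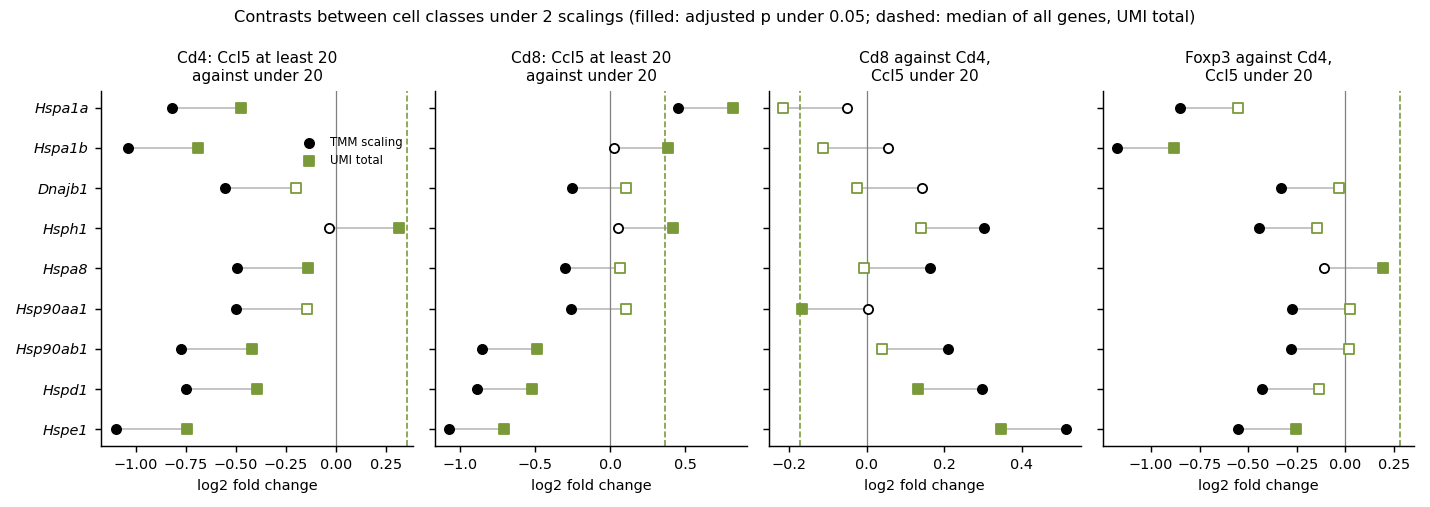
Log2 fold change (x axis) of each chaperone gene (y axis) between cell classes, with TMM scaling (black circles) and with UMI totals (green squares), filled where the adjusted p was under 0.05. The dashed line is the median of all genes with UMI totals, at 0.35, 0.36, -0.17 and 0.28 from left to right. Hspe1 and Hspd1 are low in Ccl5-high cells and high in Cd8 cells under both scalings, while Hspa8 and Hsp90aa1 cross 0 in several panels.

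Whether the knockdown difference itself depends on Ccl5 was tested as an interaction within a lineage. In Cd8 cells the difference in Hsph1 was smaller in Ccl5-high cells by 0.58 (SE 0.13, edgeR adjusted p = 8.4e-04) on the log2 scale, where the groups were apart under 20 Ccl5 UMIs and overlapped at 20 or more. The interactions of Hsp90aa1 (-0.24, adjusted p = 0.0096), Hspe1 (-0.19, adjusted p = 0.012) and Hsp90ab1 (-0.15, adjusted p = 0.0024) passed as well, so 0 were positive and 4 negative, beside 0.719% and 2.74% of all genes. Thinning each cell to 1000 UMIs turned that of Hsp90ab1 to 0.047. Leaving out single libraries gave 1 to 5 interactions among the members, with Hsph1 among them each time, and DESeq2 gave 0. In Cd4 cells 1 was positive and 0 negative, beside 0.636% and 2.79%. This was Hspe1 (0.34, SE 0.10, adjusted p = 0.033), with effects of -0.12 under 20 and 0.22 at 20 or more that did not pass on their own, and the call was lost without any 1 of the 4 libraries. In Foxp3 cells 0 were called by edgeR or DESeq2, beside 0.653% and 0.247%, and 3 of the 9 had an unadjusted p under 0.05 in edgeR.

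Between lineages at under 20 Ccl5 UMIs, Hspe1 of the mitochondrial pair was highest in Cd8 cells. Hspe1 stood at 653 to 682 CPM in Cd8, 484 to 560.3 in Cd4 and 368 to 500.3 in Foxp3 cells, the last 2 overlapping. Against Cd4 cells Hspe1 was higher in Cd8 cells by 0.52 (SE 0.04, edgeR adjusted p = 6.8e-09) with TMM and 0.35 with UMI totals, and lower in Foxp3 cells by 0.55 (SE 0.07, adjusted p = 6.6e-07) and 0.25. Hspd1 was higher in Cd8 cells by 0.30 and 0.13. All of these passed under both scalings. Levels of Hspd1 overlapped, at 152 to 169 CPM in Cd8, 140 to 156 in Cd4 and 109 to 153 in Foxp3 cells. Cd8 cells were not tested against Foxp3 cells. Hspa1b was lower in Foxp3 than in Cd4 cells by 1.18 (SE 0.16, adjusted p = 2.9e-06) with TMM and 0.88 with UMI totals, at 14.9 to 34.7 against 35.4 to 54.7 CPM. The Foxp3 value rests on few molecules, with 59, 29, 19 and 47 Hspa1b UMIs in 11, 5, 10 and 21 cells of the libraries.

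Against Cd4 cells 5 members were higher and 0 lower in Cd8 cells with TMM, beside 16.6% and 15.8% of all genes. In Foxp3 cells 0 were higher and 8 lower, beside 20.5% and 18.7%. With UMI totals the median of all genes moved by -0.17 and 0.28, and the counts fell to 2 higher and 1 lower in Cd8 cells, beside 7.93% and 36.5% of all genes, and to 1 higher and 2 lower in Foxp3 cells, beside 43.2% and 7.41%. Hspa8 lay at 0.16 with TMM and -0.01 with UMI totals in Cd8 cells, and at -0.11 (not called) and 0.19 (called higher) in Foxp3 cells. Hsp90aa1 lay at 0.00 and -0.17 in Cd8 cells and at -0.27 and 0.03 in Foxp3 cells, and Hsp90ab1 in Foxp3 cells at -0.28 and 0.02. For these the direction between lineages rests on the scaling.

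Genes that work with the chaperones were counted as lists. Of 14 HSP90 co-chaperones, 2 rose with the knockdown in Cd4 cells under 20 Ccl5 UMIs (Ahsa1, which stirs HSP90's ATPase, 0.26, and Chordc1, 0.24), 1 in Cd4 cells at 20 or more (Chordc1, 0.61) and 3 in Cd8 cells under 20 (Stip1, which links HSP70 to HSP90, 0.37, Chordc1, 0.22, and Fkbp4, 0.20), and 0 fell in any class, where 5.34%, 2.11% and 3.51% of all genes rose. None passed in Cd8 cells at 20 or more or in Foxp3 cells under 20. Of 16 HSP70 co-chaperones and relatives tested in Cd4 cells under 20, 1 rose (Dnaja1, 0.19) and 1 fell (Stub1, a ubiquitin ligase of HSP70 clients, -0.29), beside 5.34% and 3.93% of all genes. Of 17 in Cd8 cells under 20, 1 rose and 4 fell, among them Bag1 (-0.28) and Stub1 (-0.25), beside 3.51% and 2.91%. In Cd4 cells at 20 or more none of 16 passed, in Cd8 cells at 20 or more 1 of 16 rose and 2 fell, beside 5.28% and 6.08%, and in Foxp3 cells under 20 none of 17 passed.

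The chaperones of the endoplasmic reticulum, a separate system, fell in 3 of 14, 3 of 14, 3 of 14 and 4 of 14 genes in the Cd4 and Cd8 classes (under 20 and at 20 or more Ccl5 UMIs in turn) and rose in none, beside 3.93%, 2.47%, 2.91% and 6.08% of all genes lower. In Foxp3 cells under 20 none of the 14 passed. Examples are Hspa5, the reticulum's HSP70, at -0.27 in Cd4 and -0.18 in Cd8 cells under 20 Ccl5 UMIs, and Pdia3 at -0.37 and -0.22. Of the 8 TRiC subunits, the cytosolic chaperonin that folds actin, 3 fell in Cd8 cells at 20 or more (Cct6a -0.34, Cct8 -0.25 and Cct2 -0.21), 1 in Cd4 cells under 20 and 1 in Foxp3 cells under 20 (Cct4, -0.38). Hspa9, the mitochondrial HSP70, fell in Cd4 cells under 20 (-0.31) and in Cd8 cells at 20 or more (-0.52), alone of the 8 mitochondrial chaperones listed. Of the 8 genes listed as heat shock factors and small heat shock proteins 4 were tested, and 1 rose in Cd8 cells at 20 or more, beside 5.28% of all genes. None of them passed in the other classes. The immediate-early genes, which also answer to stress and handling, fell: 6 of 11 in Cd4 and 7 of 11 in Cd8 cells under 20, 2 of 11 and 5 of 10 at 20 or more, and 2 of 11 with 1 rise in Foxp3 cells under 20. The shares of all genes lower were 3.93%, 2.91%, 2.47%, 6.08% and 1.99% in the same order, and 1.92% of all genes rose in Foxp3 cells under 20. Jun lay at -0.72 in Cd4 and -1.09 in Cd8 cells under 20, and Fos at -0.72 and -1.59. The medians of the lists in these classes ran from -0.37 to 0.15, beside medians of all genes within 0.01 of 0.

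In the Ccl5 contrast with TMM, TRiC fell in 7 of 8 subunits in Cd4 and 8 of 8 in Cd8 cells (Cct6a -1.27 and -1.19), beside 26.2% and 27.5% of all genes lower. The mitochondrial list fell in 5 and 7 of 8 genes (Hspa9 -0.75 and -1.17), and the HSP90 co-chaperones in 9 of 14 with 1 rise in each lineage. The HSP70 co-chaperones went both ways, 6 higher and 8 lower of 16 in Cd4 and 5 higher and 10 lower of 17 in Cd8 cells. The reticulum's chaperones rose, in 9 and 8 of 14 genes with 1 and 2 falls, beside 26.1% and 26.7% of all genes higher (Sdf2l1 0.97 and 1.21, Hsp90b1 0.82 and 0.50). Medians were -0.57 and -0.65 for TRiC, -0.44 and -0.51 for the mitochondrial list and 0.34 and 0.29 for the reticulum list. With UMI totals TRiC fell in 5 of 8 with 1 rise in Cd4 and 6 of 8 in Cd8 cells and the mitochondrial list in 1 and 3 of 8, beside the 14.2% and 13.2% lower given above. The HSP90 co-chaperones then had 2 higher and 3 lower in Cd4 and 4 higher and 6 lower in Cd8 cells, with medians of 0.03 and -0.03, and the HSP70 co-chaperones 7 higher and 5 lower and 7 higher and 3 lower. The reticulum list rose in 11 and 13 of 14. For these counts of rises the shares of all genes higher were the 47.3% in Cd4 and 54.6% in Cd8 cells given above. The immediate-early list had 0 higher and 10 lower of 11 in Cd4 and 1 higher and 5 lower of 11 in Cd8 cells with TMM (medians -1.19 and -0.44), and 0 higher and 8 lower and 4 higher and 4 lower with UMI totals (medians -0.84 and -0.07).

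Single cells show how unevenly the inducible genes were spread. With each cell reduced to 1000 UMIs at random, a UMI of Hspa1a or Hspa1b was present in 2.83 and 2.99% of control and 4.39 and 5.13% of knockdown Cd4 cells under 20 Ccl5 UMIs. Exact 95% binomial intervals were 2.04 to 3.81, 2.12 to 4.10, 2.58 to 6.94 and 3.46 to 7.29%, and cover counting error only. In Cd8 cells under 20 the shares were 4.34 and 3.89 against 2.93 and 4.42%, overlapping, and in Cd8 cells at 20 or more they were 3.92 to 4.31% in all 4 libraries. In Foxp3 cells under 20 they were 1.95 and 0.727 against 4.49 and 3.15%, from 2 to 7 cells a library. A few cells held very many molecules at full depth, up to 69 Hspa1b UMIs in 1 Cd8 cell at 20 or more of knockdown library 1 and 59 in 1 Cd4 cell under 20 of control library 2.

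The share of cells with a UMI, at equal depth, was compared between the groups in each class. The libraries of the groups did not overlap in 24 of the members' 53 pairs of gene and class that passed a detection minimum, beside 36.8% of all such pairs, and the exact permutation test over 4 libraries cannot give a p below 0.33. Hsp90ab1 was present in 81.1% ± 0.025 (SD, n = 2) of control and 73.3% ± 2.9 of knockdown Cd8 cells under 20 Ccl5 UMIs, and in 78.8% ± 1.5 and 73.8% ± 1.3 of Cd4 cells under 20. Hsp90aa1 went the other way in Cd8 cells under 20, at 24.8% ± 1.3 and 31.4% ± 2.5 (exact two-sided permutation p = 0.33 for each of the 3). In Cd4 cells at 20 or more Hsp90aa1 went against its level. It was detected in 26.9% ± 0.88 of control cells and 23.5% ± 1.9 of knockdown cells (SD, n = 2, two-sided exact permutation p = 0.33). Its level there was 304 and 329.7 CPM against 387 and 330.4. In Foxp3 cells under 20 it was detected in 29.7% ± 1.3 against 24.3% ± 1.9 (exact permutation p = 0.33), where the levels overlapped. With 2000 UMIs read per cell the detection of Hsp90aa1 was higher with the knockdown in both classes. Reading 2000 UMIs per cell gave 34 of 54 pairs, beside 38.8% of all pairs, and all UMIs gave 32 of 54, beside 49.2%.

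Within a library, cells with a Hspa1a or Hspa1b UMI also held more of the other cytosolic chaperones. At 1000 UMIs each, 149 and 122 control and 73 and 109 knockdown cells held such a UMI, and 4048, 3566, 1826 and 2665 did not. Mean Dnajb1 was 2.58 and 4.99 times as high in the former in the control and 3.40 and 1.87 times with the knockdown. Hsp90aa1 was 1.65 to 2.24 times, Hspa8 1.21 to 1.60 times and Hsp90ab1 1.26 to 1.49 times as high. Hsph1 was 1.64 to 1.85 times as high in 3 libraries and 0.780 times in knockdown library 2. Of the mitochondrial pair, Hspe1 was 1.07 to 1.35 times as high, and Hspd1 lay on both sides of 1, at 0.796 to 1.41.

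The immediate-early list was 1.69 to 2.13 times as high in the same cells, the HSP70 co-chaperones 1.17 to 1.34 times, the HSP90 co-chaperones 0.854 to 1.13 times and TRiC 0.919 to 1.04 times. The reticulum's chaperones were 0.943 to 1.16 times and the mitochondrial chaperones 0.712 to 1.12 times as high. The summed list of heat shock factors and small heat shock proteins (Hsf1, Hsf2, Hsbp1, Hspb1, Hspb6, Hspb8, Hspb11 and Cryab) lay below 1 in all libraries, at 0.760 to 0.927 times. This sum was low, at 0.137 to 0.174 UMIs per cell in the cells with a Hspa1a or Hspa1b UMI, and does not speak for its single genes. Actb, a cytoskeletal gene that is not a chaperone, was 0.903 to 1.04 times as high. The cells compared pool all classes of a library, and the ratios are given as a description.

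**Figure D4:**
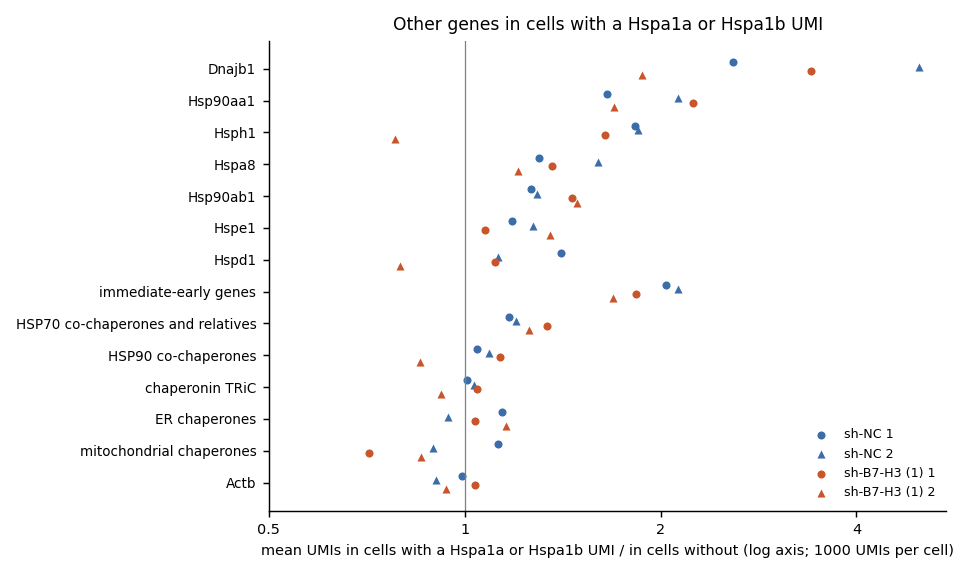
Ratio of the mean UMIs of a gene or gene list (y axis) in cells with a Hspa1a or Hspa1b UMI to that in cells without (x axis, log scale, 1000 UMIs per cell), by library. Blue marks are control and orange marks knockdown libraries, circles library 1 and triangles library 2. Dnajb1 lies between 1.87 and 4.99 and the immediate-early list between 1.69 and 2.13, while Actb lies between 0.903 and 1.04.

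RNA outside cells was read from droplets of at most 100 UMIs. Dnajb1 was 1.31 to 1.43 times as high in CPM in these droplets as in kept cells in all 4 libraries, Hspa1b 1.11 to 1.17 times, Hspa1a 1.09 to 1.46 times and Hsph1 1.09 to 1.29 times. Hspe1 was lower there, at 0.818 to 0.928 times. Hsp90ab1 went in opposite directions in the groups: in kept cells it stood at 1731 and 1720.1 CPM in the control against 1280.4 and 1269 with the knockdown, and in the droplets at 1444 and 1436 against 1557 and 1578. The fall of Hsp90ab1 with the knockdown in kept cells is thus not present in these droplets. The kept cells pool all classes, and Cd8 cells at 20 or more Ccl5 UMIs, where Hsp90ab1 was lower, numbered 365 and 408 beside 1938 and 1623 under 20 in the control and 626 and 870 beside 347 and 591 with the knockdown, so the mix of classes enters the values of kept cells. Hspa8 in the droplets stood at 1334 and 1397 against 1310.4 and 1286. Hsph1 and Hsp90aa1 were higher with the knockdown in the droplets as in the cells, at 51.8 and 50.2 against 83.8 and 76.0, and at 317 and 301 against 430.1 and 416. The part of this RNA in the cells' counts was not tested.

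**Figure D5:**
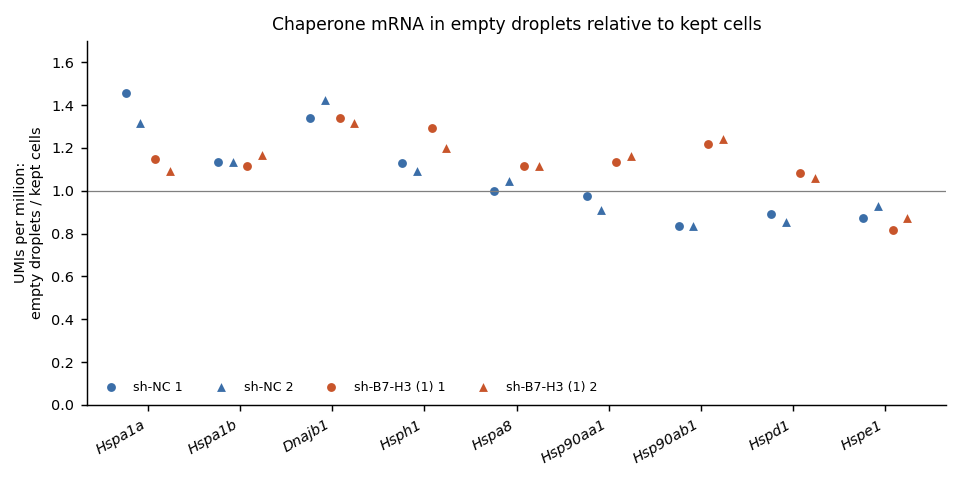
Ratio of each chaperone gene's level in empty droplets to its level in kept cells (y axis), by gene (x axis) and library. Blue marks are control and orange marks knockdown libraries, circles library 1 and triangles library 2. Hsp90ab1 lies at 0.834 and 0.835 in the control against 1.22 and 1.24 with the knockdown, and Dnajb1 between 1.31 and 1.43 in all 4.

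Across the 24 sums of class and library, which share libraries and differ in depth, Hspd1 and Hspe1 were the pair of members most alike (Pearson r = 0.71 on log2 levels), and Hspa1a and Hspa1b had r = 0.52. Among 4887 genes of at least 20 CPM, those most like Hspa8 were Apbb1ip (r = 0.88), Traf3ip3 (0.87), Sec11a (0.85), Ppdpf (0.85) and Park7 (0.85). For summed Hspa1a and Hspa1b they were Znrd1 (0.81), Dmac1 (0.77), Chchd7 (0.74), Slc25a12 (0.71) and Samm50 (0.71), but without the 4 small sums of Foxp3 cells at 20 or more these dropped to between 0.03 and 0.48. For Hspa8 they stayed between 0.68 and 0.86.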

How the data were processed

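The authors' deposited files hold raw counts of unique molecular identifiers (UMIs) per gene and barcode, made per the labels and the study's methods with Cell Ranger and STAR against mm10 and not normalized. The sources name different Cell Ranger versions, and so do the headers of the filtered and the unfiltered matrices. The part of this in the comparison of droplets with kept cells was not tested. The labels' processing notes also name Seurat 4.0.0. The filtered matrices gave the cells and the unfiltered ones the droplets of at most 100 UMIs.

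Computed here with Python 3.11.15 (numpy 2.4.6, scipy 1.17.1, pandas 2.3.3) and R 4.3.3: cells with 200 to 3000 genes and at most 5% mitochondrial UMIs were kept, the study's limits. Doublets were scored against 2 simulated doublets per cell in 30 principal components of 2000 variable genes, which removed 18.3 to 27.4% of cells, a high rate. Cd8 cells had at least 3 UMIs of Cd8a and Cd8b1 and no Cd4 or Foxp3 UMI, Cd4 cells at least 1 Cd4 UMI, under 3 Cd8 UMIs and no Foxp3 UMI, and Foxp3 cells at least 1 Foxp3 UMI and under 3 Cd8 UMIs. UMIs were summed per library and class and tested with edgeR 4.0.16 (quasi-likelihood, TMM, filterByExpr), with calls below 0.05 after Benjamini-Hochberg adjustment over all genes tested. Alternatives were DESeq2 1.42.0, other scalings, cell and expression filters, Ccl5 splits, depths, a replicate block and leaving out each library. SE of log2 fold changes came from the F statistic. Scripts were tested on simulated data. All 9 members were named in every class, and up to 3 genes per list by the largest called log2 fold change among genes of at least 20 CPM. The members and the lists were chosen with earlier results of these data known. Positions are from GENCODE vM21 (GRCm38) and promoters from RefSeq (GRCm38.p6). The antibody tag counts in the same files were not used here.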

Additional observations from a re-analysis of the deposited data

Results flagged for a closer look

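The difference made by the knockdown depended on Ccl5, by the interaction in edgeR, for 5 results. In Cd8 cells these were Hsph1 (log2 interaction -0.58), Hsp90aa1 (-0.24), Hspe1 (-0.19) and Hsp90ab1 (-0.15), the knockdown difference being lower in Ccl5-high cells each time, except that thinning each cell to 1000 UMIs turned that of Hsp90ab1 (0.047). In Cd4 cells it was Hspe1 (0.34). All 5 calls were lost in DESeq2. Hsph1 was called without each library in turn, Hsp90aa1 was lost without control library 1 or knockdown library 1, Hsp90ab1 and Hspe1 in Cd8 cells were lost without control library 2 or knockdown library 1, and Hspe1 in Cd4 cells was lost without any 1 of the 4.

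Other knockdown effects pointed in opposite directions in different lineages, with the libraries of the 2 groups not overlapping in either lineage, and the difference between lineages was not tested. Hspa1b lay at 0.54 in Cd4 and -0.36 in Cd8 cells under 20 Ccl5 UMIs, the latter call lost without any 1 of the 4 libraries. Hspa1a lay at -0.12 in Cd8 and 1.60 in Foxp3 cells under 20, the latter on 15 to 42 UMIs per library. The Cd8 value was not called (edgeR adjusted p = 0.72). Its levels, 22.5 and 19.44 CPM in the control against 17.2 and 19.20 with the knockdown, barely stood apart. At full depth Hspa1a was detected in more of these Cd8 cells with the knockdown, 5.96% against 5.18% in the control (means of 2 libraries). Hspe1 at 20 or more Ccl5 UMIs lay at 0.22 in Cd4, -0.12 in Cd8 and 0.37 in Foxp3 cells, none of which passed on its own in the main fit. In Cd8 cells it passed with UMI totals (-0.16, edgeR adjusted p = 0.015) and with other cell filters named above.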

How the results depend on the processing

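Each comparison was repeated with other processing, and the counts below are members called. Of 2129 repeated values of single genes, 1708 kept their direction and side of the threshold or stayed within 1 SE, 171 lost and 68 gained a call, 172 moved by more and 10 turned. A turn was counted only where the main or the repeated value was called. Changes of sign between uncalled values are thus not among the 10. Scaling by UMI totals turned 9: in the Ccl5 contrast Hsph1 in Cd4 cells (0.31) and Dnajb1 (0.11), Hspa8 (0.063) and Hsp90aa1 (0.10) in Cd8 cells, in Cd8 against Cd4 cells Hspa8 (-0.0065) and Hsp90aa1 (-0.17), and in Foxp3 against Cd4 cells Hspa8 (0.19), Hsp90aa1 (0.025) and Hsp90ab1 (0.021). Thinning to 1000 UMIs turned the Cd8 interaction of Hsp90ab1 (0.047).

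Leaving out 1 library at a time gave, for the knockdown, 2 to 5 calls in Cd4 cells under 20 Ccl5 UMIs, 0 to 2 at 20 or more, 2 to 4 in Cd8 cells under 20, 2 to 4 at 20 or more, 3 to 3 in Foxp3 cells under 20 and 0 to 0 at 20 or more. The Ccl5 contrast gave 8 to 8 in Cd4, 6 to 7 in Cd8 and 0 to 1 in Foxp3 cells, the interaction 0 to 0, 1 to 5 and 0 to 1, Cd8 against Cd4 cells 5 to 6 and Foxp3 against Cd4 cells 7 to 8. Where 1 library of a group was left, it was taken to vary like the other group.

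In the knockdown comparisons, Cd4 cells under 20 gave 2 calls with stricter lineage calls, 1 after thinning to 1000 UMIs and 0 with a log2 fold change of at least 1. Cd4 cells at 20 or more gave 2 with UMI totals, with no filter, with no doublet removal and with the replicate block, and 0 with DESeq2, the fold minimum, up to 10% mitochondrial UMIs, either other Ccl5 split and thinning. Cd8 cells under 20 gave 3 in 1 fit of all sums, 2 after thinning and 0 with the fold minimum. Cd8 cells at 20 or more gave 4 with no doublet removal, up to 10% mitochondrial UMIs and the split at 10 Ccl5 UMIs, 6 with no upper gene limit, and 0 after thinning and with the fold minimum. Foxp3 cells under 20 gave 2 with DESeq2 and the split at 10, 1 with the fold minimum and 0 after thinning. Foxp3 cells at 20 or more gave 1 with UMI totals, both other splits and 1 fit of all sums.

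The Ccl5 contrast gave, with the fold minimum, 2 calls in Cd4, 1 in Cd8 and 0 in Foxp3 cells. In Foxp3 cells it gave 0 with UMI totals, DESeq2 and thinning, 3 with no filter, no doublet removal, up to 10% mitochondrial UMIs and both other splits, and 4 with no upper gene limit. The interaction in Cd4 cells gave 0 with DESeq2's size factors, DESeq2, the fold minimum, no doublet removal, no upper gene limit, up to 10% mitochondrial UMIs, both other splits and thinning. In Cd8 cells it gave 0 with DESeq2, the fold minimum and thinning, 1 with no filter and 2 with the split at 20 per 10000 UMIs. Cd8 against Cd4 cells gave 3 with UMI totals and 0 with the fold minimum, and Foxp3 against Cd4 cells 3, 1 and, after thinning, 4. The cause of these changes was not tested, except that the fold minimum admits fewer genes and thinning leaves fewer UMIs.

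Same-numbered libraries did not deviate together (Pearson r across genes -0.08 to 0.01), so the replicate numbers do not pair them. The replicate block moved no other count of calls by over 1.5 times. Stricter lineage calls were not run for the 3 comparisons with Foxp3 cells at 20 or more, which had too few cells.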
